A study of Mus musculus with 21 samples.

Results

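The regions described here are the 1792 autosomal regions that appear both in the deposited table of Tg197 against WT synovial fibroblasts at 8 weeks and in the deposited table of TNF-treated against untreated WT fibroblasts at 8 weeks. A region was taken when its row in the Tg197 table overlapped a row of the TNF table by at least 1 bp, which held for 16.3% of the 10986 autosomal Tg197 rows and 11.0% of the 16285 autosomal TNF rows. The whole series lists 49307 regions in 4 tables. Every region in either table had already been selected by the authors as different from WT.

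The assay was MethylCap-seq, in which a methyl-CpG-binding protein pulls methylated fragments out of sonicated genomic DNA before sequencing, so that a region's read count rises with its methylated CpG content and falls where methylation is lost. Tg197 cells carried the human TNF transgene that gives these mice chronic arthritis. WT cells came from the same CBA x C57BL/6J strain, and the TNF-treated cells were WT cells exposed to TNF at a dose and for a time that the labels do not give. All were cultured synovial fibroblasts of passages 4 to 5 from mice aged 8 weeks, with 3 libraries per group. The labels do not say whether the libraries of a group came from separate animals or cultures, so the p-values reflect the spread of these libraries alone, which may be technical. The comparison asks which loci differ more in cells from a chronically TNF-exposed joint than in WT cells exposed to TNF in the dish, or the reverse.

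TNF is an inflammatory cytokine that signals through 2 receptors, TNFR1 and TNFR2, to the NF-kB and JNK pathways. Synovial fibroblasts line the joint, secrete and degrade its matrix, and are a main target of TNF in inflammatory arthritis. DNA methylation at CpG sites is copied through cell division, and in fibroblasts from arthritic joints it is often read as a lasting record of past exposure.

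Both tables hold the same 3 WT libraries. At the 257 regions with identical coordinates in both tables, on all chromosomes, each WT library had the same number of reads in both, and its normalised values differed by constant ratios of 1.013, 1.017 and 1.112. Each Tg197 or TNF-treated value was therefore expressed as log2 of (value + 1) over (WT mean of its own table + 1). The first and second TNF-treated values were identical in 16898 of 16898 rows and were counted as 1 library, which left 3 Tg197 and 2 TNF-treated libraries. Library numbers below are positions in the deposited tables. Reads in listed regions ranged from 695108 to 1143699 per library in the Tg197 table and from 1285306 to 1858694 in the TNF table. A region's value was low enough that depth matters: the median WT level was 110 normalised reads at members listed as gained in Tg197 and 28.4 at members listed as lost.

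Of the 1792 regions, 915 were intergenic, 793 lay in gene bodies, 64 lay 1 to 3 kb from a start and 20 lay within 1 kb of a start. Among the regions within 1 kb, those at Krt25, a keratin of the hair follicle, and Scn4a, the sodium channel of skeletal muscle, covered the whole promoter window, and that at Cort, which encodes the neuropeptide cortistatin, covered all but its outer end. They are shown to place the CG of these promoters. Which of those CG were methylated or captured was not measured. The RefSeq promoters below (GRCm38.p6, 250 bases before the start to 50 bases after it, matched by symbol, minus strand, CG in capitals) hold 6, 4 and 10 CG. The median over 32851 RefSeq promoters of that length was 7 CG, and 94.6% held at least 1.

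Krt25, chr11:99322902-99323201: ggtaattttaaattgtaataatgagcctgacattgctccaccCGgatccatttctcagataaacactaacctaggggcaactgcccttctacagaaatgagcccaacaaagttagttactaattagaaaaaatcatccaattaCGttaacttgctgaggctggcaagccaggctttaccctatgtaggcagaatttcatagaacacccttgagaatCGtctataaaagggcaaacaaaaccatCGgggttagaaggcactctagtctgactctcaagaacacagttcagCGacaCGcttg
Scn4a, chr11:106349341-106349640: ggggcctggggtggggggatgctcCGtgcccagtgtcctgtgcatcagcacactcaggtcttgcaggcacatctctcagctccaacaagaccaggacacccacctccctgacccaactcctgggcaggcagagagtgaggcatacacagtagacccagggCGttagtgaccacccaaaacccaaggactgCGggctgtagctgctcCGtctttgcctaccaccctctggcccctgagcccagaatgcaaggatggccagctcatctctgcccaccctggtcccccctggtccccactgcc
Cort, chr4:149126714-149127013: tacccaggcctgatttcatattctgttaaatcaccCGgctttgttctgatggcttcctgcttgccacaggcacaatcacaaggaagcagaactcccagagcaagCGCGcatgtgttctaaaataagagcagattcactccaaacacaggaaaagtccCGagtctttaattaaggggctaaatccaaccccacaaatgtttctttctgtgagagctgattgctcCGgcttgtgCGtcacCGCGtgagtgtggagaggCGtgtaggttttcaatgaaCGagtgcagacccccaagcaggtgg

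A further region with identical coordinates in both tables lay on the microRNA gene Mir490, from 40 bases before the hairpin's start to 459 bases after it. Its mature products are given from RefSeq (GRCm38.p6) with the seed, bases 2 to 8, in capitals, because it was the only member within 1 kb of a start whose gene is a microRNA.

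mmu-miR-490-5p: cCAUGGAUcuccaggugggu
mmu-miR-490-3p: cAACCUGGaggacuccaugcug

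No autosomal region differed between Tg197 and TNF-treated cells at an adjusted p under 0.05 (limma with a level trend, Benjamini-Hochberg over the 1984 pairs of all chromosomes, background 0%). The smallest adjusted p was 0.0643. Fitted and adjusted over autosomal pairs alone, 13 regions passed, 4 higher in Tg197 and 9 lower, and all 13 shared less than 50% of the longer region. At an unadjusted p under 0.05 there were 89 of 1792 regions (4.97%), beside 4.64% of all pairs, which include them. Both are near the share of 0.05 that the threshold would pass with no difference. limma voom on the recovered reads, an alternative chosen after seeing the data, also passed 0 regions and had 89 at an unadjusted p under 0.05. The median of Tg197 minus TNF-treated over all 1792 regions was -0.08 on the log2 scale, and it was 0.10 after each library was centred on its own median, so no overall direction is read from it. Single differences, none of which passed in the fit over all pairs, ranged from -3.98 at Tmem2 to 3.13 at Zfp704. Neither was among the regions named below for their small p.

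The size of the difference moved with how much sequence the paired regions had in common. Regions with identical coordinates (244) had a median absolute difference of 0.16, and those sharing 80% or more of the longer region but not identical (625) had 0.17. The median was 0.19 for the 691 regions sharing 50 to 80%, 0.41 for the 180 sharing 20 to 50%, and 1.2 for the 52 sharing under 20%. Of the 89 regions with an unadjusted p under 0.05, 69 shared less than 50% of their bases and 5 shared at least 80%, although 869 of the 1792 members shared at least 80% and 232 less than 50%. The WT means of the paired regions differed along with this: their median absolute log2 ratio between tables was 0.06 at identical coordinates, 0.1 at 80 to 100%, 0.31 at 50 to 80%, 1.0 at 20 to 50% and 1.38 under 20%. Where little sequence is shared, the tables therefore measured largely different DNA at that locus, and the difference compares neighbouring segments rather than the same segment. The standard error of the direct test holds the spread of the Tg197 and TNF-treated libraries and not that of WT, which cancels at identical coordinates and does not where the segments differ.

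**Figure D1:**
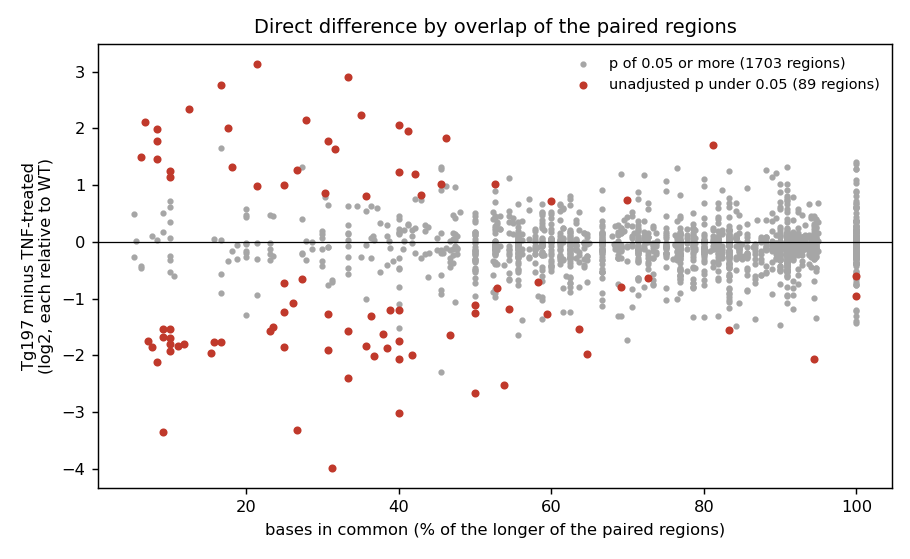
Each point is 1 of the 1792 regions, with the percentage of the longer paired region held in common on the x axis and Tg197 minus TNF-treated (log2, each relative to WT) on the y axis. The 89 regions with an unadjusted p under 0.05 in limma are red, and 69 of them lie below 50% in common.

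Among the 869 well-matched regions, those sharing at least 80% of both rows, no region passed in a limma fit over well-matched pairs alone. There were 6 at an unadjusted p under 0.05, and the smallest adjusted p was 0.999. The same 6 make up the 0.642% of the 934 well-matched pairs of all chromosomes with such a p, so that share is no outside reference. It is below the share of 0.05 that the threshold would pass with no difference at all, so the 6 are described as values only. The 95% interval of the difference lay within 1 log2 unit either side of 0 at 592 of the 1792 regions (33.0%) and at 312 of the 869 well-matched ones (35.9%). At these 312 a difference beyond 2-fold between Tg197 and TNF-treated cells was outside the interval. At the rest of the 592 the segments differ and the interval leaves out the WT spread, so a 2-fold difference is not excluded there. The median half-width over all members was 0.99, so at most regions outside the 592 a 2-fold difference in either direction could not be seen with this number of libraries.

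The 6 well-matched regions were named after their values were seen. Their adjusted p was 0.999 in the limma fit over well-matched pairs, and the differences, errors and adjusted p given for each below come from the fit over all pairs. The first was intergenic, on chr13:99900601-99901300 (mm9, identical in both tables), with 80.9, 99.6 and 83.8 normalised reads in the Tg197 libraries against a WT mean of 134 ± 6.52 (SD, n = 3), and 189 and 170 in the TNF-treated libraries against 140 ± 8.21 (SD, n = 3). All 3 Tg197 libraries lay below WT and both TNF-treated libraries above it. The region was lost in Tg197 (log2 -0.61, limma adjusted p = 0.0428) and gained after TNF (0.35, limma adjusted p = 0.0235), and the direct difference was -0.96 ± 0.23 (SE; 95% interval -1.5 to -0.41; limma adjusted p = 0.172).

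A region in the body of Dnahc5, which encodes an axonemal dynein heavy chain of motile cilia, had the largest difference among well-matched regions (chr15:28215951-28216850 in the Tg197 table, 94.4% in common). Its Tg197 values were 79.5, 16.6 and 25.0 against a WT mean of 92.9 ± 12.7 (SD, n = 3), and its TNF-treated values were 141 and 146 against 96.9 ± 8.88 (SD, n = 3). Tg197 library 1 was near WT while libraries 2 and 3 were far below it. The region was lost in Tg197 (log2 -1.49, limma adjusted p = 0.0484) and gained after TNF (0.57, limma adjusted p = 0.0109), with a direct difference of -2.06 ± 0.61 (SE; 95% interval -3.52 to -0.60; limma adjusted p = 0.357).

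Lnpep, the insulin-regulated aminopeptidase, had the same order of groups (chr17:17690651-17691250, gene body, 83.3% in common). Its Tg197 values were 58.3, 23.5 and 55.9 against a WT mean of 85.4 ± 9.93 (SD, n = 3), and its TNF-treated values 105 and 91.8 against 65.6 ± 6.77 (SD, n = 3). The difference was -1.56 ± 0.43 (SE, limma adjusted p = 0.272), and the Tg197 change by itself did not pass (log2 -0.98, limma adjusted p = 0.0523). In the body of C230081A13Rik (chr9:56108301-56108800, identical) the Tg197 libraries held 170, 136 and 157 against 216 ± 6.43 (SD, n = 3) in WT, a loss of log2 -0.49 (limma adjusted p = 0.0443). The TNF-treated libraries held 248 and 243 against 226 ± 5.81 (SD, n = 3), which did not pass (log2 0.12, limma adjusted p = 0.287). The direct difference there was -0.61 ± 0.24 (SE, limma adjusted p = 0.845).

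In the other direction, an intergenic region on chr16:39096451-39097250 (81.2% in common) had Tg197 values of 72.9, 75.4 and 32.4 against a WT mean of 31.3 ± 6.6 (SD, n = 3), and TNF-treated values of 14.9 and 19.8 against 32.6 ± 5.53 (SD, n = 3). Tg197 libraries 1 and 2 were above every WT value and library 3 was at the WT level. The direct difference was 1.71 ± 0.43 (SE, limma adjusted p = 0.2). Tada2a, an adaptor of histone acetyltransferase complexes, was lost in both comparisons and less so in Tg197 (chr11:83938151-83938650, gene body, 80% in common). Its log2 change was -0.92 in Tg197 (limma adjusted p = 0.0428) and -1.86 after TNF (limma adjusted p = 0.0109), and the direct difference was 0.98 ± 0.41 (SE, limma adjusted p = 0.998). None of these 6 differences passed after adjustment.

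**Figure D2:**
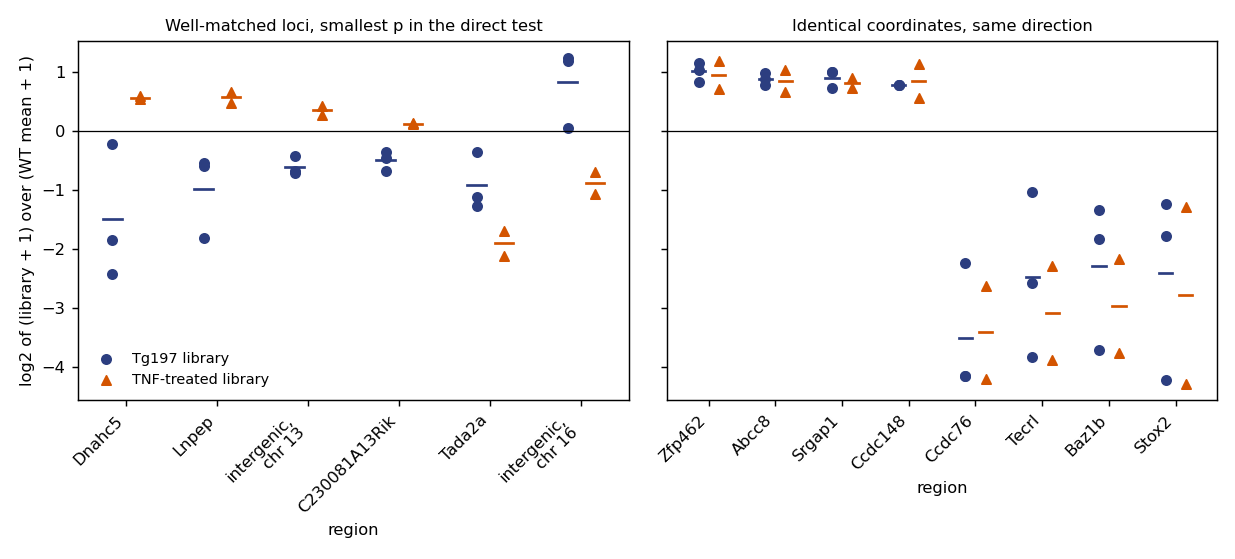
Points are libraries (3 Tg197, 2 TNF-treated) and bars their means, as log2 of (library + 1) over (WT mean + 1), for the 6 well-matched regions with the smallest p (left) and for 8 regions with identical coordinates that were listed in the same direction in both tables (right). On the left the Tg197 and TNF-treated points of a region do not overlap, while on the right they lie in the same range. Both sets were chosen by these values, so the contrast follows from the choice. On the right both groups are also set against the same WT reads.

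Regions that changed alike are given beside them, and were chosen for being alike. These were also named after their values were seen, as the identical-coordinate regions at genes that passed in the same direction in both tables and had the largest summed changes. Zfp462, a zinc finger gene, was gained in Tg197 with 27.8, 25.6 and 22.1 normalised reads against a WT mean of 12 ± 2.1 (SD, n = 3), and after TNF with 29.9 and 21.1 against 12.5 ± 1.96 (SD, n = 3). The direct difference at Zfp462 was 0.06, with a 95% interval of -0.69 to 0.80. Abcc8, the sulfonylurea receptor of the ATP-sensitive potassium channel, was gained in Tg197 (49.0, 42.2 and 45.6 against 24.3 ± 4.22, SD, n = 3) and after TNF (40.8 and 53.3 against 25.5 ± 5.17, SD, n = 3), with a difference of 0.03 (95% interval -0.58 to 0.65). Srgap1, a GTPase-activating protein of the Slit and Robo pathway, had a difference of 0.08 (95% interval -0.48 to 0.64). At these 3 regions the intervals leave room for differences of less than 2-fold only.

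At the losses named by the same rule few reads remained and the intervals were wide. The rule takes the largest changes, so these do not stand for all losses. In the body of Ccdc76 the Tg197 libraries held 0, 2.77 and 0 normalised reads against a WT mean of 16.7 ± 2.02 (SD, n = 3), and the TNF-treated libraries held 1.99 and 0 against 17.4 ± 1.26 (SD, n = 3). Both groups were close to 0 reads, and the 95% interval of the difference ran from -2.91 to 2.72. Baz1b, which encodes a bromodomain subunit of chromatin remodelling complexes, was lost in both (log2 -2.26 in Tg197, limma adjusted p = 0.0428, and -2.94 after TNF, limma adjusted p = 0.0109) with an interval of -1.96 to 3.3. Ephb2, an ephrin receptor, was also lost in both (log2 -3.2 and -1.82, limma adjusted p = 0.0428 and 0.0109), and its difference of -1.39 had an interval of -3.73 to 0.95.

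The poorly matched loci gave the smallest p-values. By the rule for named regions, the 10 with the smallest p in each direction were taken since none passed, and all 20 shared only 6.2 to 46.2% of the longer region. Their adjusted p ran from 0.0643 to 0.116. At an intergenic locus on chromosome 6, the Tg197 row (chr6:12725501-12726000) held 191, 148 and 149 normalised reads against a WT mean of 112 ± 12.5 (SD, n = 3). The TNF row (chr6:12725801-12726300), which shared 200 bp with it, held 3.98 and 4.96 against 14.6 ± 2.42 (SD, n = 3). The WT means of these rows differ several-fold, so that a gain in one segment stands beside a loss in its neighbour (direct difference 2.05 ± 0.27 SE, limma adjusted p = 0.0643).

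Of genes in this group, Celsr2, a planar cell polarity cadherin, had Tg197 values of 183, 172 and 175 against 132 ± 17.5 (SD, n = 3) in one segment and TNF-treated values of 19.9 and 24.8 against 46.7 ± 12.3 (SD, n = 3) in the next, with 50 bp in common. Map4k4, a kinase upstream of JNK, stood at log2 -0.16 in Tg197 (limma adjusted p = 0.345) and -1.44 after TNF (limma adjusted p = 0.0109), with 18.2% in common. In the opposite direction, Camk2b, a subunit of calcium/calmodulin-dependent kinase II, was lost in Tg197 (log2 -1.19, limma adjusted p = 0.0428) and gained after TNF (0.48, limma adjusted p = 0.0122), with 16.7% in common. Itpr1, the inositol trisphosphate receptor that releases stored calcium, was likewise lost in Tg197 (log2 -1.05, limma adjusted p = 0.0444) and gained after TNF (0.41, limma adjusted p = 0.0109), with 9.1% in common. The other named genes of this kind were Nomo1 and Erp27, higher in Tg197, and Aox3l1 and Capn11, higher after TNF.

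In a further fit, an alternative chosen after seeing the data, the WT libraries of both tables were put in as groups of their own. That fit entered the same WT libraries once per table as if they were independent, so its p-values may be too small. In it 3 regions passed, all higher in Tg197 and all sharing less than 50%. They were the chromosome 6 locus (difference 2.04, limma adjusted p = 0.0273) and intergenic loci on chromosome 12 (chr12:89077751-89078600 in the Tg197 table, 1.99, limma adjusted p = 0.0273) and chromosome 3 (chr3:95231151-95232350, 2.34, limma adjusted p = 0.0306). At the chromosome 3 locus the shared stretch was 150 bp, the Tg197 row was gained (log2 1.23, limma adjusted p = 0.0428) and the TNF row was lost (log2 -1.11, limma adjusted p = 0.0127).

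Members passed within both tables in opposite directions at 23 of the 1792 regions, of which 19 shared less than 50% and 2 at least 80%. Those 2 were the chromosome 13 region and Dnahc5 described above. The Tg197 and TNF-treated values relative to WT did not overlap at 256 regions (14.3%), and 69 of these were among the 869 well-matched ones. With so few libraries, full separation is frequent without any difference, so these counts are not read as differences.

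Measured against WT within their own tables, 254 members (14.2%) were gained and 745 (41.6%) lost in Tg197, on backgrounds of 17.4% gained and 36.6% lost among all rows of that table (54% in all, limma adjusted p under 0.05). After TNF 765 members (42.7%) were gained and 894 (49.9%) lost, on backgrounds of 29.8% and 64.1% (93.8% in all). The rows had been selected as different by the authors, and both counts rest on the same WT libraries, so neither set of counts is support for the other. The Tg197 calls lay close to the threshold, with a smallest adjusted p of 0.0428 over all rows: leaving out Tg197 library 1 or 3, or WT library 1 or 2, gave 0 calls in limma over that table beside 6470 with every library, with 4382 to 6662 rows at an unadjusted p under 0.05. The median log2 over all rows stayed between -0.57 and -0.66 in these fits, beside -0.71 with every library. Leaving out Tg197 library 2 gave 8849 calls and leaving out WT library 3 gave 5061. Under the same omissions the comparison of TNF-treated with WT cells gave between 10967 and 15870 calls.

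The 3 Tg197 libraries covered a wider range than the 2 distinct TNF-treated ones. A range tends to be wider over 3 values than over 2, so the groups are not compared in variability. Over the 408 well-matched regions listed as gained in Tg197, the median log2 value relative to WT was 0.98, 0.20 and 0.48 in Tg197 libraries 1, 2 and 3, and 0.48 and 0.77 in the TNF-treated libraries. Over the 461 listed as lost, it was -1.58, -1.18 and -1.51 in Tg197 and -1.29 and -1.46 after TNF. Library 2 of Tg197 was nearest to WT in both sets, and both TNF-treated libraries lay within the range of the Tg197 libraries. At the lost regions WT library 3 was also below the other WT libraries, with a median of -0.23 against 0.10 and 0.08. Without it, the median log2 over all rows was -0.76 beside -0.71 in the Tg197 table and -1.22 beside -1.11 in the TNF table, with 3827 lost rows beside 4383 and 10917 beside 10827. Without Tg197 library 2 the direct test passed 31 regions, 29 of them sharing less than 50%, and without library 1 it passed 9, 1 of them well matched.

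**Figure D3:**
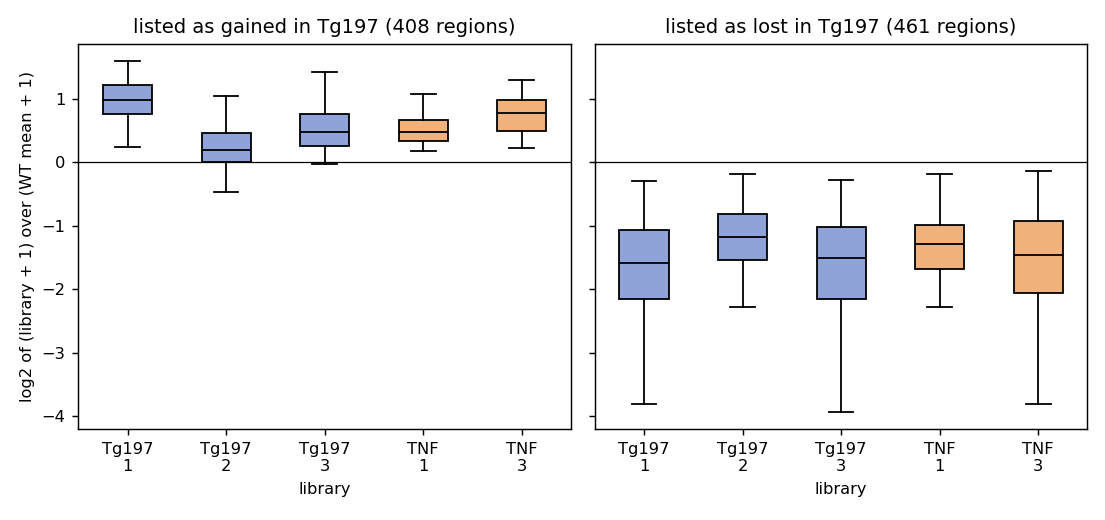
Boxes show the log2 of (library + 1) over (WT mean + 1) over well-matched regions in each of the 3 Tg197 and 2 distinct TNF-treated libraries, with the median, quartiles and whiskers at the 5th and 95th percentiles, for 408 regions listed as gained in Tg197 (left) and 461 listed as lost (right). The medians of the TNF-treated libraries, 0.48 and 0.77 on the left and -1.29 and -1.46 on the right, fall between those of the Tg197 libraries.

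By position, the medians had opposite signs in genes and between them in both comparisons. Gene-body members had a median log2 of -1.12 in Tg197 and -1.03 after TNF, with 430 lost and 71 gained in Tg197 and 534 lost and 198 gained after TNF. Intergenic members had medians of 0.35 and 0.42, with 542 gained and 308 lost after TNF. In Tg197 fewer intergenic members passed as gained (171) than as lost (268), although the median was above 0. The direct difference did not separate these classes: its median was -0.10 in gene bodies, -0.08 between genes, -0.10 at 1 to 3 kb from a start and -0.08 within 1 kb.

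The 20 regions within 1 kb of a start had no direct difference at an unadjusted p under 0.05, and the median absolute difference was 0.12. In Tg197 6 were gained and 6 lost, and after TNF 12 were gained and 7 lost, where all members had 14.2% gained and 41.6% lost in Tg197 and 42.7% and 49.9% after TNF. The region over the Scn4a promoter shown above held 79.5, 104 and 121 normalised reads in Tg197 against 155 ± 10.9 (SD, n = 3) in WT, and 114 and 119 after TNF against 196 ± 17.5 (SD, n = 3). All 5 libraries were below WT (log2 -0.62, limma adjusted p = 0.0432, and -0.74, limma adjusted p = 0.0109), with a difference of 0.12 (95% interval -0.50 to 0.74).

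The Krt25 region went the other way, with 284, 289 and 310 in Tg197 against 215 ± 25.7 (SD, n = 3) and 183 and 197.1 after TNF against 122 ± 9.02 (SD, n = 3). It was gained after TNF (log2 0.64, limma adjusted p = 0.0109), while the Tg197 value did not pass (0.45, limma adjusted p = 0.0517), and the difference was -0.19 (95% interval -0.76 to 0.38). At Cort, the promoter with the most CG of the 3, neither comparison passed: Tg197 stood at log2 -0.15 (limma adjusted p = 0.38) and TNF at -0.23 (limma adjusted p = 0.0945). Mir490 held 105, 44.3 and 45.6 in Tg197 against 31.2 ± 5.22 (SD, n = 3) and 50.8 and 71.9 after TNF against 32.8 ± 6.84 (SD, n = 3). The Mir490 gain passed after TNF (log2 0.88, limma adjusted p = 0.0119) and not in Tg197 (0.93, limma adjusted p = 0.0661), where library 1 was far above the others, and the difference of 0.05 (95% interval -0.98 to 1.08) did not separate them.

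The promoter-proximal regions of Nt5dc2, Ywhaq and 2310037I24Rik were gained in both comparisons. Nt5dc2 had the tightest of these values, with 123, 125 and 121 in Tg197 against 73.4 ± 11.9 (SD, n = 3) and 68.7 and 93.0 after TNF against a WT mean of 47.9, and a difference of 0.01 (95% interval -0.56 to 0.57). Trim13, a ubiquitin ligase, Meox1, a homeobox factor, and Mlycd, malonyl-CoA decarboxylase, were lost in both, with differences of -0.50, -0.21 and 0.05. The Meox1 rows had 47.6% of bases in common. Among the 64 regions at 1 to 3 kb, Cyp1a2 had the only unadjusted p under 0.05 (difference -1.54), with 10% of bases in common. Tlr9, the receptor for unmethylated CpG DNA, was lost in Tg197 (log2 -1.45, limma adjusted p = 0.0428) and after TNF (-0.85, limma adjusted p = 0.0109), with a difference of -0.63 (95% interval -1.56 to 0.31). H2-Oa, an antigen-presentation gene of the MHC, was lost in Tg197 (log2 -0.53, limma adjusted p = 0.0428), while its TNF value did not pass (-0.21, limma adjusted p = 0.107), with a difference of -0.32 (95% interval -0.83 to 0.19) and 90.0% in common.

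Pathway and marker lists held 55 member regions at 51 genes, of which 23 were well matched. Against WT, 6 were gained and 34 lost in Tg197, and 10 gained and 41 lost after TNF. Over all members the shares were 14.2% gained and 41.6% lost in Tg197 and 42.7% and 49.9% after TNF, and most list regions lay in gene bodies, where 430 of 793 members were lost in Tg197 and 534 of 793 after TNF. The counts for single lists below are to be read against these, and none is called particular to its list. In the direct test 0 passed and 2 had an unadjusted p under 0.05, Stat2 and Fbn1, and the median difference was -0.14 beside -0.08 over all members. Neither Tnf nor its receptor genes Tnfrsf1a and Tnfrsf1b had a member region.

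In TNF and NF-kB signalling there were 5 regions, all in gene bodies, of which 3 were lost in Tg197 and 5 after TNF, beside 430 and 534 of the 793 gene-body members. Traf5, an adaptor of TNF receptor family members, had identical coordinates in both tables (log2 -1.67 in Tg197, limma adjusted p = 0.0428, and -1.44 after TNF, limma adjusted p = 0.011), with a difference of -0.23 (95% interval -1.69 to 1.23). Ikbkb, the IKK beta kinase that releases NF-kB, had the most reads: 76.9, 107 and 88.3 in Tg197 against 148 ± 3.82 (SD, n = 3), and 118 and 64.5 after TNF against a WT mean of 151. Its difference was 0.07 (95% interval -0.70 to 0.85), smaller than the spread between libraries of either group. Cflar, which encodes the caspase-8 inhibitor c-FLIP, was lost in both with a difference of -0.19, and Mapk8, the kinase JNK1, was lost after TNF (log2 -1.32, limma adjusted p = 0.0248) and stood at -1.19 in Tg197 (limma adjusted p = 0.0781). Card10, a scaffold that couples receptors to NF-kB, had the largest difference of the list, -0.92 (95% interval -1.9 to 0.05), with 45.5% of bases in common.

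Downstream of cytokine receptors, the Stat2 region, at a transcription factor of the interferon pathway, held 99.4, 105 and 116 in Tg197 against a WT mean of 164 ± 58.8 (SD, n = 3), and 237 and 258 after TNF against 231 ± 17.4 (SD, n = 3). Neither comparison passed within its table (log2 -0.55, limma adjusted p = 0.107, and 0.10, limma adjusted p = 0.398), and the direct difference was -0.71 (95% interval -1.25 to -0.18; limma adjusted p = 0.429) with 58.3% in common. Ifnar2, a chain of the type I interferon receptor, and Irf2, a repressor of interferon genes, were lost in both, with differences of -0.21 and 0.26. Oas2, an antiviral enzyme, was gained after TNF (log2 0.62, limma adjusted p = 0.0109) and stood at 0.43 in Tg197 (limma adjusted p = 0.0607), with a difference of -0.19 (95% interval -0.76 to 0.38).

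Matrix genes had 7 regions, 6 of them lost in Tg197 and 6 after TNF, again beside 430 and 534 of 793 gene-body members. Fbn1, which encodes the microfibril protein fibrillin-1, had 2 regions that did not go the same way in the direct test. The region sharing 63.6% had a difference of -1.54 (95% interval -3.04 to -0.05; limma adjusted p = 0.982), while the one with identical coordinates had 0.38 (95% interval -1.33 to 2.1). At the first, the WT mean was 19.2 in the Tg197 table and 91.5 in the TNF table. Collagen genes Col7a1, Col5a3 and Col16a1 were lost in both comparisons, with differences of -0.74, -0.49 and -0.07. Tnc, the matrix glycoprotein tenascin-C, was lost in both with a difference of 0.48 and 47.1% of bases in common. Lama3, a laminin chain, was gained after TNF (log2 0.71, limma adjusted p = 0.0138). The proteases Adam9 and Adamts14 were lost in both with differences of -1.31 and -0.89, and Adamts19 was lost after TNF with 0.67. All 3 intervals included 0.

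Of genes in developmental signalling, Wnt3, a Wnt ligand, and Smad3, a signal transducer of TGF-beta, were gained in both. Smad3 held 35.8, 9.0 and 66.2 in Tg197 against a WT mean of 4.41 ± 0.66 (SD, n = 3), and 11.95 and 19.8 after TNF against 3.52 ± 0.945 (SD, n = 3). All 5 libraries were above WT, and Tg197 libraries 2 and 3 differed so much that the direct difference of 0.57 had an interval of -1.3 to 2.43. Lrp6, a Wnt co-receptor, Znrf3, a ubiquitin ligase that removes Wnt receptors, and Wnt5b, a Wnt ligand, were lost in both, with differences of -0.17, -0.27 and -0.06. Smad1, a transducer of BMP signals, and Eng, a TGF-beta co-receptor, were lost in both as well. Hoxa3 and Gli2 were lost in both with differences of -0.14 and -0.09.

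Chromatin regulators had 7 regions, 6 lost in Tg197 and 6 after TNF (gene-body members, 430 and 534 of 793), with a median difference of -0.27 beside -0.08 over all members. They included Ehmt1, a histone H3K9 methyltransferase (difference -0.18, 95% interval -1.25 to 0.90), and Chd7, a chromatin remodeller (0.12, -1.14 to 1.38). Hdac1, a histone deacetylase, passed in neither and had 38.5% of bases in common. Of adhesion genes, Itga3 had a region lost in both (difference -0.49, 95% interval -1.33 to 0.36) and another lost after TNF, as was Dock1, an activator of Rac. Of cell cycle genes, Ccnd3 and Cdk1 were lost in both, with differences of -0.14 and -0.01. Cd28, the T cell co-receptor, was the single region of the lymphocyte list and was gained in both (160, 98.3 and 113 in Tg197 against 69.9 ± 11.7, SD, n = 3, and 73.7 and 73.2 after TNF against 43.1 ± 6.29, SD, n = 3). Of genes at rheumatoid arthritis susceptibility loci, Hc, which encodes complement C5, and Arid5b, a chromatin-binding factor, were lost in both with differences of -0.73 and -0.50. Aff3 was lost after TNF, with 16.7% of bases in common. Of imprinted genes, Ppp1r9a was lost in both and Trappc9 gained after TNF. Of endothelial genes Vwf was gained and Esam and Eng were lost in both. Of muscle genes a region of Ttn was gained in both and Myh2 after TNF (Tg197 log2 0.47, limma adjusted p = 0.0949). Another Ttn region, with 33.3% of bases in common, passed in neither. It stood at log2 0.14 in Tg197 (limma adjusted p = 0.405) and 0.22 after TNF (limma adjusted p = 0.0584). The synovial fibroblast and macrophage lists had 0 member regions, so the identity of the cells could not be checked here, and methylation capture does not measure expression. A mixture of cell types and a change within cells cannot be told apart in bulk DNA.

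**Figure D4:**
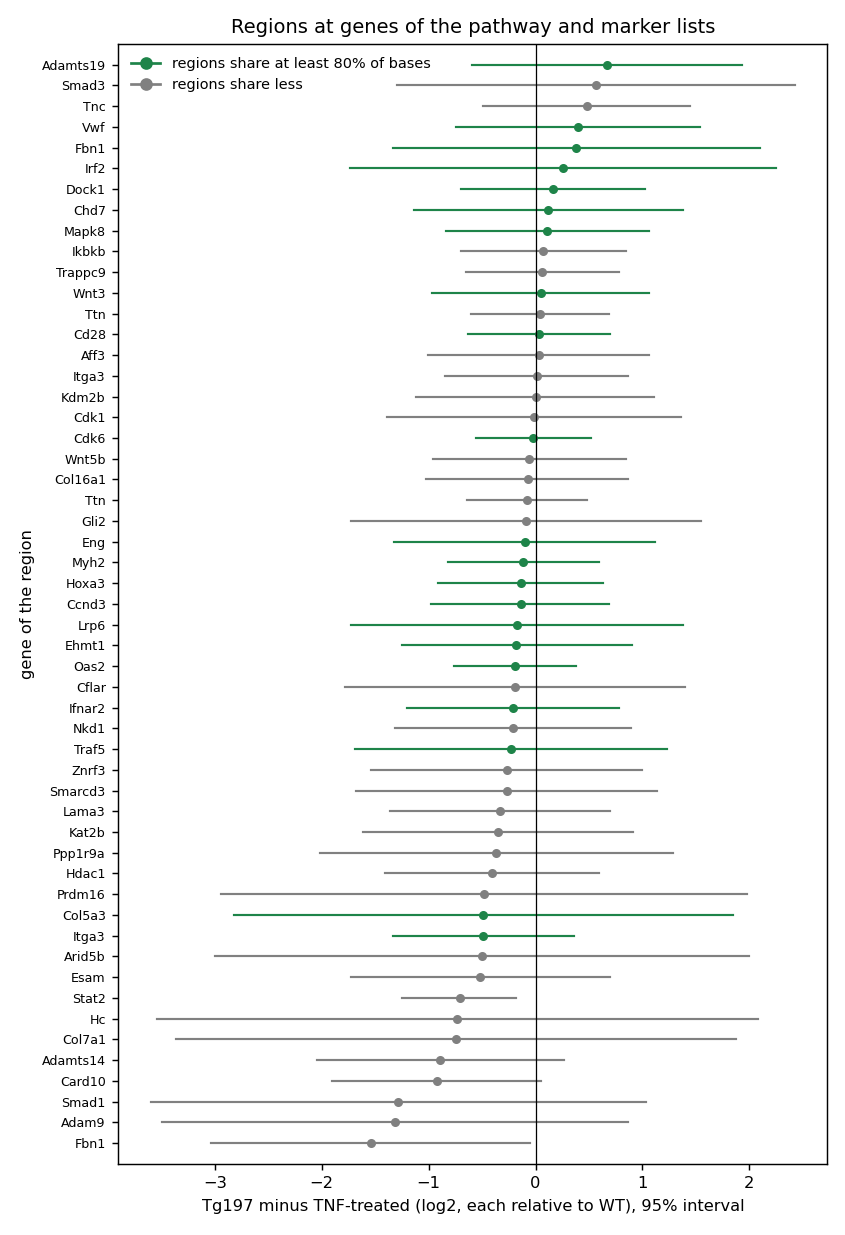
Points are the direct difference, Tg197 minus TNF-treated (log2, each relative to WT), with 95% intervals, for 53 of the 55 regions at genes of the lists, ordered by value. Green regions share at least 80% of their bases, and the interval excluded 0 only at Stat2 and at 1 of the Fbn1 regions, both grey.

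Members lay close together in some places. Of 851 stretches of 2 Mb with a member, the median held 2 and 51 held at least 5. The densest, 94 to 96 Mb of chromosome 11, held 14 regions that were all listed as lost in both tables, at genes including Itga3, an integrin chain, and Cacna1g, a calcium channel, with medians of -1.25 in Tg197 and -1.1 after TNF. The stretch from 6 to 8 Mb of chromosome 3 held 10 regions, none assigned to a gene and all listed as gained, with medians of 0.39 and 0.41 and differences between -0.25 and 0.08. At 76 to 78 Mb of chromosome 11, 8 of 9 regions were listed as lost in each table. Of all 125 members on chromosome 11, only 30 were listed as gained in Tg197 and 29 after TNF. On chromosome 3, 63 and 64 of 103 were listed as gained, beside 805 and 855 of all 1792 members. Both comparisons rest on the same WT libraries, so being listed alike in both is not independent. Among the 51 stretches with at least 5 members, the largest median differences were on chromosome 15 from 58 to 60 Mb (-0.65, 5 regions, 1 of them well matched), on chromosome 14 from 86 to 88 Mb (-0.51, 6 regions, 2 well matched) and on chromosome 5 from 114 to 116 Mb (-0.48, 5 regions, 3 well matched).

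Few members were listed at other ages, where both Tg197 and WT libraries were different ones. At 3 weeks 119 members overlapped a listed region, and at 11 weeks 44. Of the 68 listed as gained in Tg197 at 8 weeks and listed again at 3 weeks, 9 were gained and 59 lost at 3 weeks, in a table where 43.2% of autosomal rows were gained. Of the 26 listed again at 11 weeks, 3 were gained and 23 lost, in a table with 55.0% gained. Members listed as lost at 8 weeks were gained at 25 and lost at 26 of 51 regions at 3 weeks, and gained at 13 and lost at 5 of 18 at 11 weeks. These directions are the authors' own calls in the deposited tables, the overlap was at least 1 bp, and only 19 regions at 3 weeks and 3 at 11 weeks shared at least 80% of both rows, too few to describe further.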

How the data were processed

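Per the labels' protocols, methylated DNA was captured with MethylMiner after sonication, and the low- and high-salt eluates were combined, so dense and sparse methylation are not separated. Per the submitters' processing notes, the genome build was mm9 and the tools named are Cuffdiff, Cufflinks, TopHat2, TopHat and BWA, without roles. The program that compared the groups is not given in the sources used here. Per the file headers, the deposited signal is the authors' normalised group mean, beside the authors' log2 fold change, p-value and adjusted p-value per region. The values of the 3 libraries of a group stand in 1 deposited cell. Of the values above 0 and up to 20 reads, 100.0% were whole multiples of 1 read per library (tolerance 0.1 read). The value of 1 read was chosen so that these came out whole, and larger values were not checked.

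Rows of the 2 tables were paired by overlap, taking for each Tg197 row the TNF row that shared most. limma 3.58.1 (R 4.3.3) with a level trend was run on log2(value + 1) within each table, and on the values relative to WT for the direct difference, with Benjamini-Hochberg adjustment over all rows or pairs and a threshold of 0.05. Gained and lost mean passing that test against WT; "listed as" means the authors' own call. The tests were tried on simulated data. Regions were named as the 10 smallest p in each direction with a mean of at least 10 reads and no overlap between groups, by gene list, by promoter, and by stretch of 2 Mb. The members, lists and rules were chosen with earlier results of these data known. Precision is limited by the 5 libraries and by reads in listed regions. Alternatives covered pseudocount, filter, overlap, centring, the WT reference, the fit and each library in turn. Sequences are from RefSeq GRCm38.p6, matched by symbol; mm9 sequence was not used here. The regions of 1 gene of the lists are counted but not reported here.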

Additional observations from a re-analysis of the deposited data

How the results depend on the processing

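The direct test passed 0 regions (limma) with pseudocounts of 0.5 and 5, with a mean of at least 10 reads, at an overlap of 80%, at identical coordinates, after centring, without a trend, over all overlapping pairs and with limma voom. It passed 152 regions when values were not divided by WT, 13 when fitted over autosomal pairs alone, and 3 with the WT libraries in the fit. The fit with the WT libraries counted the same libraries once per table as if independent. Leaving out 1 library gave 0 to 31 regions: 9 without Tg197 library 1, 31 without Tg197 library 2, 1 without WT library 2, 28 without WT library 3 and 0 otherwise. Among well-matched pairs, leaving out each Tg197 or TNF-treated library gave 0 to 1, and WT omissions were not run there. Of the calls at 13, 3, 9, 31 and 28 regions, 13, 3, 6, 29 and 27 shared less than 50% of their bases, and of the 152, 6 shared at least 80%. In the Tg197 table leaving out 1 library gave 0 to 8849 calls beside 6470, and the TNF comparison gave 10967 to 15870 beside 15855. Of 1712 values of the 79 named loci under 27 alternatives, 1583 moved by less than their standard error with no change of call, 84 passed under an alternative, and 44 moved further without passing. The estimate changed sign under at least 1 alternative at 40 of the 79 loci, in all but 1 without passing the test in either fit. The exception, the chromosome 13 locus at 115331151, reversed, from -1.86 to 2.63, when not divided by WT, since its WT means differ between the tables. The cause of the other changes was not tested. No paired analysis was possible because the deposited cells carry no replicate number. The planned quasi-likelihood count test was not run, and limma voom on recovered reads stood in for it. Depth may limit the lost regions more. The median WT level was 28.4 normalised reads at members listed as lost in Tg197, beside 110 at those listed as gained. Precision was not compared between these sets.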
